A study of Rattus norvegicus with 9 samples.

Results

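Lysosomes are acidic organelles in which hydrolases break down proteins, sugars and lipids delivered by endocytosis or by autophagy, the enclosure of cell contents in a membrane that then fuses with the lysosome. A proton pump, the V-ATPase, acidifies them, and the related transcription factors Tfeb and Tfe3 switch on many lysosome and autophagy genes when they enter the nucleus. Senescent cells are known for an enlarged lysosomal compartment, and beta-galactosidase, encoded by Glb1, is the enzyme behind a common stain for them. The 38 genes described here were listed by name for their part in this system and fall into 8 roles, and each matched exactly 1 row among the 34267 genes of the deposited table. Of these, 37 passed the filter for testing, at least 1 FPKM in at least 3 libraries, and Ctss did not.

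The values come from sequencing of poly(A) RNA of primary, wild-type progenitor cells from the condylar cartilage of rats, in 9 libraries. The P9 group held 3 libraries of cells grown in culture to passage 9, the study's model of replicative senescence. In the FFSS group, 3 libraries came from cells of passage 3 after flow fluid shear stress, the study's model of degeneration from abnormal load. Its strength and duration are not given in the sources used here. The P3 group held 3 libraries of passage 3 cells as the control for both. FPKM are fragments scaled by gene length and by the depth of the library, so that levels can be set beside each other between genes. Fold changes are on the log2(FPKM + 1) scale, a gene counts as higher or lower at a Benjamini-Hochberg adjusted p under 0.05 over all 13059 genes tested with limma, and all tests were two-sided. No label says that replicates were separate animals or cultures, so the p-values measure only the spread between these libraries, which may be technical.

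Library totals were 13264930 to 15323790 fragments. FFSS replicate 1 stood apart from its group: across tested genes it had a Pearson r of 0.915 with replicate 2 and 0.947 with replicate 3, which correlated at 0.969 with each other. P9 replicate 1 gave lower values for short genes, with a median log2 difference of -0.18 from the mean of the other 2 P9 libraries among genes under 1 kb and 0.13 among genes over 4 kb. The label of the cells was checked against markers. The cartilage collagen gene Col2a1 was nearly absent, at 0 to 0.191 FPKM in P9, 0.0297 to 0.378 FPKM in FFSS and 0.703 to 1.06 FPKM in P3. Acan, the aggrecan gene, stood at 499 to 609 FPKM in P9, 29.3 to 48.2 FPKM in FFSS and 122 to 135 FPKM in P3. The 7 listed cartilage markers, Acan and Col2a1 among them, summed to 507 to 616 FPKM in P9. That sum was 70.7 to 88.4 FPKM in FFSS and 142 to 148 FPKM in P3, and Acan was a smaller part of it in FFSS. Acan and Col2a1 stood lower in FFSS than in P3. The part of the sum from the other listed markers went the other way, and was on average higher in FFSS than in P3 or P9. The progenitor surface marker Thy1 stood at 823 to 1196 FPKM in P9, 1296 to 1437 FPKM in FFSS and 824 to 949 FPKM in P3. Fewer cells of a type and less RNA per cell cannot be told apart in such bulk libraries.

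Of the 38 listed genes, those called against P3 were all lower at passage 9 and all higher under shear stress. At passage 9, 5 of the 37 tested members were lower than in P3 and none was higher, namely the proteases Ctsd and Ctsz, the membrane protein Lamp1, the mannosidase Man2b1 and the saposin precursor Psap. Under shear stress, 8 members were higher than in P3 and none was lower: the proteases Ctsb and Ctsd, the glycosidases Hexa and Gusb, the cholesterol carrier Npc2, and the autophagy genes Sqstm1, Gabarapl1 and Ulk1. Ctsd was the 1 member called in both, lower in P9 and higher in FFSS. Set against each other, P9 was lower than FFSS for 15 members and higher for Atg7 alone.

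The members called lower in P9 than in P3 were 13.5% of those tested, against 4.44% of all genes; those called higher were none of 37, against 5.39% of all genes, with 12 of 37 (32.4%) at an unadjusted p under 0.05 in either direction, against 23.2% of all genes. In FFSS against P3, 21.6% of members were higher, against 11.4% of all genes, and none was lower, against 10.4%, with 18 of 37 (48.6%) at an unadjusted p under 0.05, against 37.3% of all genes. Between the models, 40.5% of members were lower in P9 than in FFSS, against 15.3% of all genes, and 2.7% were higher, against 16.1%. In values alone, all P9 libraries lay below all P3 libraries for 18 of 37 members (48.6%), against 19.1% of all genes, and all FFSS libraries lay above all P3 libraries for 17 (45.9%), against 20.1% of all genes. In either direction, 9.83% of all genes were called in P9 against P3. The comparisons of P9 and of FFSS with P3 share the P3 libraries. The members, and the wider list described below, were chosen with earlier results of these data known. A share above that of all genes is therefore a description and not independent evidence. The median log2 fold change of the members was -0.16 for P9 against P3, 0.27 for FFSS against P3 and -0.35 for P9 against FFSS, where the medians over all tested genes were -0.0026, -0.011 and 0.0029. Over all genes, the median for P9 against FFSS ran with gene length, at -0.11 for genes under 1 kb, -0.05 for 1 to 2 kb, 0.03 for 2 to 4 kb and 0.14 for over 4 kb. In FFSS against P3 it ran the other way, at 0.05, 0.04, -0.02 and -0.13 for the same lengths, and in P9 against P3 it lay between -0.04 and 0.01. Between 1 and 4 kb lay 32 of the 38 members. The part of length in the members' values was not tested.

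**Figure D1:**
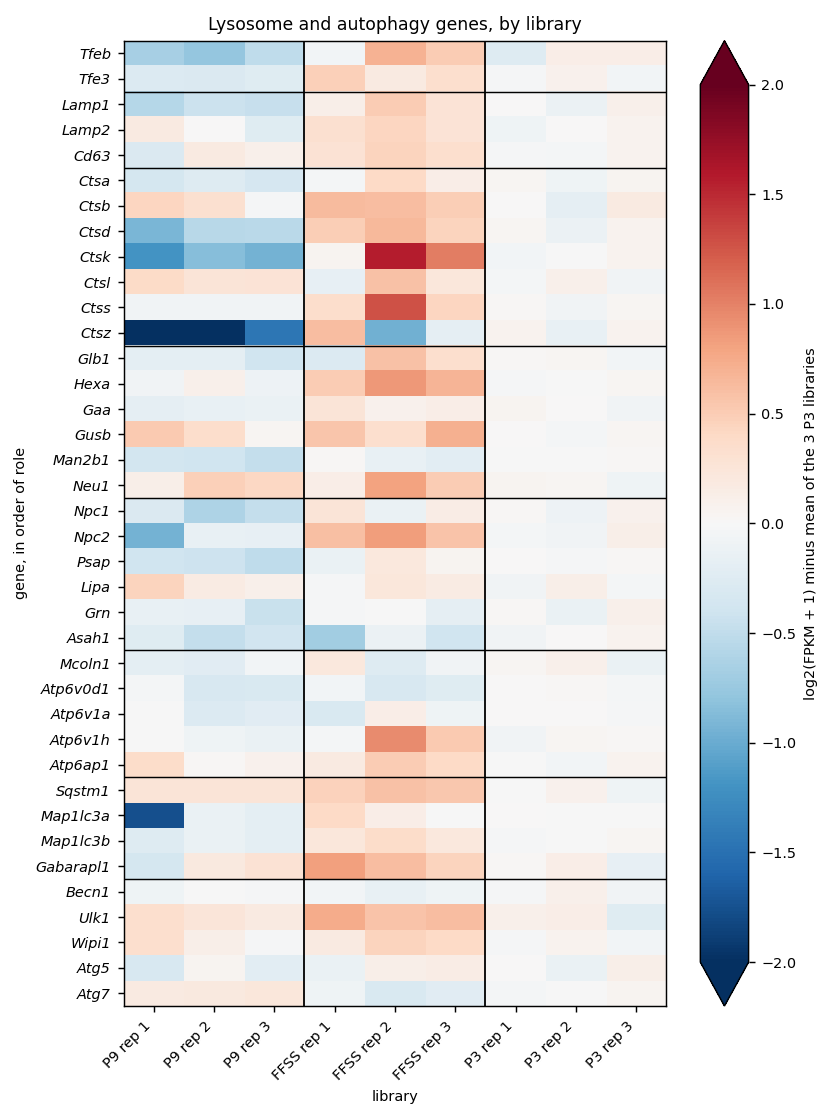
Colour gives the log2(FPKM + 1) value of each of the 38 genes (rows, grouped by role with lines between roles) in each of the 9 libraries (columns), minus the mean of the 3 P3 libraries; values past 2 in either direction take the end colour. The 3 P9 columns are mostly blue, with 26, 22 and 27 of the 37 tested genes below the P3 mean, and the FFSS columns mostly red, with 23, 28 and 27 above it.

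Single libraries moved these counts, and the counts over all genes with them. The 5 lower members in P9 against P3 numbered 8 without FFSS replicate 1 and 3 without FFSS replicate 3. They numbered 3, 1 and 2 when P9 replicate 1, 2 or 3 was left out, and 1, 2 and 1 when P3 replicate 1, 2 or 3 was. Over all genes, the 580 lower calls numbered 1005 and 461 without FFSS replicate 1 or 3. They numbered 381, 303 and 422 without a P9 library and 260, 355 and 272 without a P3 library, in the order of the replicates. The 8 higher members in FFSS against P3 numbered 17, 5 and 3 when FFSS replicate 1, 2 or 3 was left out, and 3, 3 and 4 when P3 replicate 1, 2 or 3 was. They numbered 5 when P9 replicate 2 was left out. Over all genes, the 1483 higher calls numbered 2588, 1150 and 789 without an FFSS library, 657, 730 and 792 without a P3 library, and 1166 without P9 replicate 2. The 15 lower members in P9 against FFSS numbered 10 to 16 over the 9 libraries left out in turn. Without a filter on low values the P9 calls of Psap and Lamp1 against P3 were lost (adjusted p = 0.0957 and 0.0772), as were the FFSS calls of Ctsd, Ctsb, Npc2 and Gabarapl1 (adjusted p = 0.0552, 0.0569, 0.094 and 0.0667). Between the models, a fit of only those 2 groups lost the calls of Psap, Ctsa, Gaa, Gabarapl1, Man2b1, Npc1 and Atg7 (adjusted p = 0.0591 to 0.136), and scaling by library totals lost those of Gaa, Gabarapl1 and Man2b1 (adjusted p = 0.0611 to 0.0913).

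**Figure D2:**
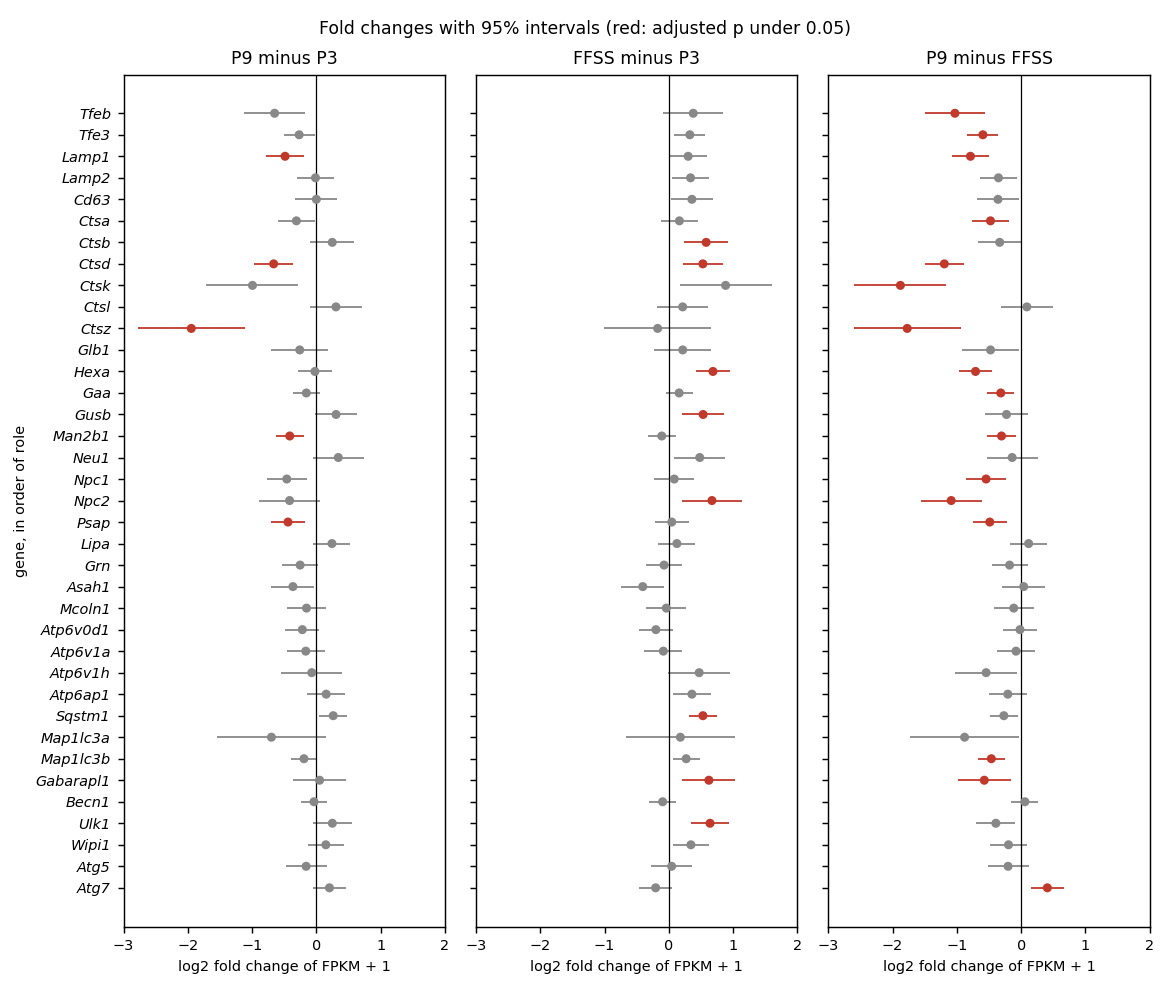
Points give the log2 fold change of FPKM + 1 of each of the 37 tested genes, lines its 95% interval from limma, in 1 panel for each comparison (P9 over P3, then FFSS over P3, then P9 over FFSS); red marks an adjusted p under 0.05. The red points lie left of 0 in the first panel (5 genes), right of 0 in the second (8 genes), and left of 0 in the third (15 genes) except for Atg7.

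The regulators Tfeb and Tfe3 had their lowest transcript levels at passage 9. Tfeb stood at 3.76, 3.39 and 4.28 FPKM in P9, 6.24, 11.2 and 9.67 FPKM in FFSS, and 5.27, 7.29 and 7.21 FPKM in P3. All P9 libraries lay below all P3 and FFSS libraries, and FFSS replicate 1 lay within the P3 range. The log2 fold change was -1.03 ± 0.21 (SE), adjusted p = 0.00631 for P9 against FFSS. It did not pass for P9 against P3, at -0.65 (95% interval -1.12 to -0.18, adjusted p = 0.0905), or for FFSS against P3, at 0.38 (95% interval -0.09 to 0.85, adjusted p = 0.213). Tfe3 stood at 17.0, 16.7 and 17.3 FPKM in P9, 29.0, 23.5 and 26.4 FPKM in FFSS, and 20.4, 21.9 and 19.8 FPKM in P3. Its groups did not overlap, with P9 lowest and FFSS highest. P9 against FFSS passed (-0.60 ± 0.11 (SE), adjusted p = 0.00372), and P9 or FFSS against P3 did not (-0.27 and 0.33, adjusted p = 0.168 and 0.0578). Tfeb passed in P9 against P3 without FFSS replicate 1 (adjusted p = 0.0169), in a fit of only those 2 groups (adjusted p = 0.0225) and with a weight for each library in the fit (adjusted p = 0.0301). It passed in FFSS against P3 without FFSS replicate 1 (adjusted p = 0.0191) and with library weights (adjusted p = 0.00109), and Tfe3 passed in FFSS against P3 without FFSS replicate 2 (adjusted p = 0.0351). With library weights Tfe3 passed in P9 and in FFSS against P3 (adjusted p = 0.0108 and 0.000295). These are transcript levels, and the position of the proteins in the cell was not measured.

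Tfeb and Tfe3 bind the CLEAR element, whose consensus is the E-box core CACGTG with GT before it and AC after it. The promoter windows of the members were searched for the core and for the full element. RefSeq windows on the build GRCr8, from 250 bases before to 50 after the start of the gene, were at hand for 31 of the 38 members. Both motifs read the same on either strand, and each full element contains a core. The core stood in the windows of 8 of the 31 members (25.8%), Atg5, Atp6v0d1, Cd63, Ctsd, Gaa, Glb1, Lamp1 and Mcoln1, and in 2148 of 33469 windows of all genes (6.42%). The full element stood in none of the 31 and in 0.233% of all windows. The letters TCACGTGAC, 9 of the 10, on either strand, a search chosen after the first was seen, stood in the windows of Atp6v0d1, Ctsd, Lamp1 and Mcoln1 (12.9% of members, 0.618% of all windows). Those 4 windows are shown because they carry the closest matches in both a pair of genes that changed, Ctsd and Lamp1, and a pair that was called in no comparison, Atp6v0d1 and Mcoln1. Capitals mark each E-box core, extended to 9 letters where the longer match was found.
Ctsd, chr1:206968772-206969071, minus strand: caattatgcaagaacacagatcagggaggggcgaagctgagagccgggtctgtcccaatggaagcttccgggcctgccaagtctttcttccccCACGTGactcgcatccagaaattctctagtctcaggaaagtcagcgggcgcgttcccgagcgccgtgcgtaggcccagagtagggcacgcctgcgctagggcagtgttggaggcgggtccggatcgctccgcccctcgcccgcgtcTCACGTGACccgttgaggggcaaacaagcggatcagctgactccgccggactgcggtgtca
Lamp1, chr16:83075014-83075313, minus strand: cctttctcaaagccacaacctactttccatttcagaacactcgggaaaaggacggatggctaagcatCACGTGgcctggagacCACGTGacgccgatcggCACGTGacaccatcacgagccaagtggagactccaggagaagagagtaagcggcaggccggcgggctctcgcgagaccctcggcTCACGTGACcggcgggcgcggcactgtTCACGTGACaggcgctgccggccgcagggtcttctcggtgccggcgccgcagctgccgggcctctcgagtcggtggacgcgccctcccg
Atp6v0d1, chr19:50357199-50357498, minus strand: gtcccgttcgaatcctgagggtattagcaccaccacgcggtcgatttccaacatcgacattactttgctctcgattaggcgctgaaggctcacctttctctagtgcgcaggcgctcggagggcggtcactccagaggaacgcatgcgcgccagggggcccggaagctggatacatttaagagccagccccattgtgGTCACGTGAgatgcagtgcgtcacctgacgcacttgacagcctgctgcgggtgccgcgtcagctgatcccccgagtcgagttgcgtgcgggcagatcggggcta
Mcoln1, chr12:6358008-6358307, plus strand: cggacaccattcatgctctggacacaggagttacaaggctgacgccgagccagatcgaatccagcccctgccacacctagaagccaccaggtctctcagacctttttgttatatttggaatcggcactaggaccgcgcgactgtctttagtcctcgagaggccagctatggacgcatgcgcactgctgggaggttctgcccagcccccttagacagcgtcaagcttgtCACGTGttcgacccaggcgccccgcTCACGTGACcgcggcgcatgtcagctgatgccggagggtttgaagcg
The 9-letter matches began 11 bases before the start in Ctsd, 66 and 39 bases before it in Lamp1 and 54 bases before it in Atp6v0d1, and at base 4 of the transcript in Mcoln1. The Lamp1 window held 5 cores, those of Ctsd and Mcoln1 2 each and that of Atp6v0d1 1. A match describes the letters of a window, and binding was not measured.

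Of the lysosomal membrane proteins, Lamp1 was lower at passage 9 and none of the 3 was called under shear stress. Lamp1, an abundant glycoprotein that lines the lysosomal membrane, stood at 247, 273 and 266 FPKM in P9, 399, 525 and 444 FPKM in FFSS, and 371, 340.0 and 394 FPKM in P3. The P9 libraries lay below the P3 libraries and the FFSS libraries above them, without overlap. Lamp1 fell in P9 against P3 (-0.49 ± 0.13 (SE), adjusted p = 0.0447) and was lower in P9 than in FFSS (-0.79 ± 0.13 (SE), adjusted p = 0.00231), while FFSS against P3 had 0.30 (95% interval 0.01 to 0.59, adjusted p = 0.122). Lamp2, its close relative, stood at 189, 167 and 141 FPKM in P9, 208, 224 and 200.4 FPKM in FFSS, and 157, 168 and 175 FPKM in P3. FFSS lay above P9 and P3, which overlapped, and no comparison passed (log2 fold changes -0.02, 0.34 and -0.35 for P9 against P3, FFSS against P3 and P9 against FFSS). Cd63, a tetraspanin of late endosomes and secreted vesicles, was the most abundant member, at 716, 989 and 935 FPKM in P9, 1065, 1194 and 1102 FPKM in FFSS, and 858, 846 and 914 FPKM in P3. It had the same order as Lamp2 and no call, with adjusted p = 0.998, 0.104 and 0.0856 in the same 3 comparisons. Lamp1 lost its call against P3 without P9 replicate 1, 2 or 3, FFSS replicate 3 or P3 replicate 1, 2 or 3 (adjusted p = 0.0759 to 0.178), and with scaling by library totals (adjusted p = 0.0534). In FFSS against P3, Lamp1 passed without FFSS replicate 1 (adjusted p = 0.032), Lamp2 without P9 replicate 1 (adjusted p = 0.0483) and Cd63 without P9 replicate 1 (adjusted p = 0.0373). In P9 against FFSS, Lamp2 passed without P9 replicate 1 (adjusted p = 0.0258). Lamp1, like Ctsa, Gusb, Npc1, Asah1, Atp6v0d1, Sqstm1 and Wipi1, overlaps another annotated gene, and reads of such pairs may not have been separable, since the use of strand in counting is not stated.

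Of the 6 listed cathepsin and protective protein genes that were tested, 2 fell at passage 9 (Ctsd and Ctsz) and 2 rose under shear stress (Ctsd and Ctsb). Of all genes, 4.44% were lower in P9 than in P3 and 11.4% higher in FFSS than in P3. The counts within this and the other roles, of 6 or fewer tested genes each, were not tested against those shares. Ctsd, the aspartic protease cathepsin D (Rnor_6.0 chromosome 1, 215541542 to 215553451, minus strand), had 282, 362 and 365 FPKM in P9, 746, 830.2 and 725 FPKM in FFSS, and 548, 488 and 558 FPKM in P3. The 3 groups did not overlap. Ctsd fell in P9 (-0.67 ± 0.14 (SE), adjusted p = 0.0154) and rose in FFSS (0.53 ± 0.14 (SE), adjusted p = 0.0251), and the models differed by -1.19 ± 0.14 (SE), adjusted p = 0.000392. Ctsz, a carboxypeptidase also called cathepsin X (Rnor_6.0 chromosome 3, 172527107 to 172537877, minus strand), had the largest fall of all tested members in P9 against P3. Its transcripts stood at 2.11, 1.55 and 3.70 FPKM in P9, 18.7, 5.62 and 10.4 FPKM in FFSS, and 12.5, 10.7 and 12.6 FPKM in P3. P9 lay below both other groups, while the FFSS libraries spread to either side of P3. Ctsz fell in P9 against P3 (-1.95 ± 0.37 (SE), adjusted p = 0.0107) and was lower than in FFSS (-1.77 ± 0.37 (SE), adjusted p = 0.00719), and FFSS against P3 had -0.17 (95% interval -1.004 to 0.66, adjusted p = 0.764). Ctsd lost its P9 call without P3 replicate 1 or 3 (adjusted p = 0.0781 to 0.0796), and its FFSS call without FFSS replicate 2 or 3 or P3 replicate 1, 2 or 3 (adjusted p = 0.0581 to 0.0994). Ctsz lost its call against P3 without P9 replicate 2 (adjusted p = 0.0506).

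Ctsb, the cysteine protease cathepsin B, stood at 532, 494 and 387 FPKM in P9, 609, 604 and 554 FPKM in FFSS, and 394, 345 and 447 FPKM in P3. FFSS lay above both other groups. Ctsb rose in FFSS (0.58 ± 0.15 (SE), adjusted p = 0.0273), a call that was lost without FFSS replicate 2 or 3 or P3 replicate 1 or 2 (adjusted p = 0.0618 to 0.105). It was not called in P9 against P3 (0.25, adjusted p = 0.388) or against FFSS (-0.33, adjusted p = 0.123). Ctsk, a collagen-degrading protease best known from osteoclasts, stood at 56.4, 71.8 and 66.6 FPKM in P9, 135, 386 and 266 FPKM in FFSS, and 125, 129 and 136 FPKM in P3. The P9 libraries were the lowest, and FFSS replicate 1 was in the P3 range while FFSS replicates 2 and 3 lay far above it. P9 was lower than FFSS (-1.88 ± 0.32 (SE), adjusted p = 0.00275). Neither P9 against P3 (-0.99 (95% interval -1.71 to -0.28, adjusted p = 0.0893)) nor FFSS against P3 (0.88 (95% interval 0.17 to 1.60, adjusted p = 0.0764)) was called. Ctsk passed in P9 against P3 without FFSS replicate 1 or 2 (adjusted p = 0.00328 to 0.0257), in a fit of only those 2 groups (adjusted p = 0.00165) and with library weights (adjusted p = 0.000629). It passed in FFSS against P3 without FFSS replicate 1 (adjusted p = 0.000799) and with library weights (adjusted p = 2.12e-05). Osteoclast markers, of which 7 of 7 were in the table, summed to 2.17 to 3.06 FPKM in P9, 9.39 to 10.7 FPKM in FFSS and 9.998 to 15.4 FPKM in P3, with Calcr, Ocstamp and Dcstamp at 0 fragments in all 9 libraries.

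Ctsa, the protective protein that stabilises beta-galactosidase and sialidase, stood at 252, 270.4 and 255 FPKM in P9, 312, 426 and 354 FPKM in FFSS, and 331, 303 and 333 FPKM in P3. P9 lay below P3 and below FFSS, and only the difference from FFSS was called (-0.48 ± 0.13 (SE), adjusted p = 0.0223). That call was lost without P9 replicate 1 or 3 or FFSS replicate 2 or 3 (adjusted p = 0.0513 to 0.06). P9 against P3 passed in a fit of only those 2 groups (adjusted p = 0.0468) and with library weights (adjusted p = 0.00744). Ctsl, the cysteine protease cathepsin L, stood at 574, 527 and 531 FPKM in P9, 391.9, 658 and 518 FPKM in FFSS, and 426, 475 and 421 FPKM in P3. Its P9 values lay above P3, but no comparison was called (0.30, 0.22 and 0.09, adjusted p = 0.359, 0.408 and 0.73 for P9 against P3, FFSS against P3 and P9 against FFSS). FFSS against P3 passed without FFSS replicate 1 (adjusted p = 0.0403), and with library weights both P9 and FFSS against P3 passed (adjusted p = 0.0206 and 0.00642). Ctss, a protease of antigen-presenting cells, was not tested: it had 0 fragments in each P9 library, 5, 22 and 6 fragments in FFSS and 1, 0 and 1 in P3. At 0 fragments, up to 3 per library remain possible from counting alone.

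**Figure D3:**
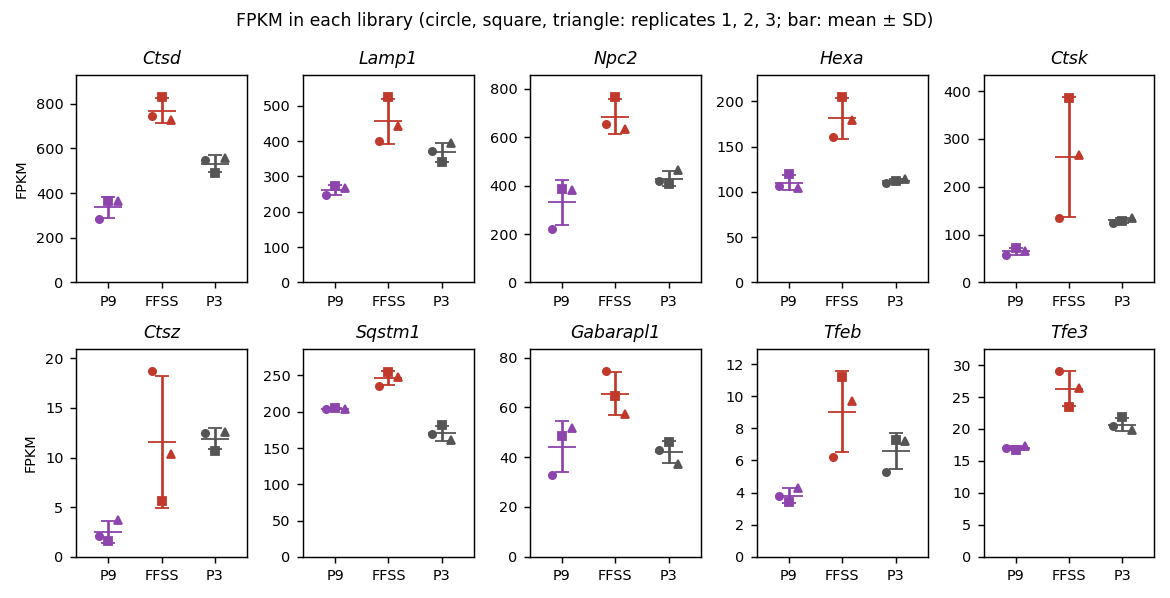
Each panel gives the FPKM of a gene in the 9 libraries, with groups along the axis, symbols for replicates 1 to 3, and bars for the mean ± SD (n = 3 each). Ctsd, Lamp1 and Tfe3 show 3 groups that do not overlap, with P9 lowest and FFSS highest, and in Ctsk, Ctsz and Tfeb the FFSS libraries spread widely.

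Among the glycosidases, Hexa and Gusb rose under shear stress and Man2b1 fell at passage 9. Hexa, the alpha chain of beta-hexosaminidase, which degrades gangliosides (Rnor_6.0 chromosome 8, 64325435 to 64350773, plus strand), had 107, 119 and 104 FPKM in P9, 160.0, 205 and 179 FPKM in FFSS, and 109, 111 and 114 FPKM in P3. P9 and P3 overlapped, and FFSS lay above both. Hexa rose in FFSS (0.69 ± 0.12 (SE), adjusted p = 0.00582) and was lower in P9 than in FFSS (-0.71 ± 0.12 (SE), adjusted p = 0.00238); both calls held under each of the 17 alternative settings, including each library left out. Gusb, beta-glucuronidase, stood at 23.9, 21.0 and 16.9 FPKM in P9, 24.3, 20.9 and 27.3 FPKM in FFSS, and 16.3, 15.8 and 16.7 FPKM in P3. All P9 and FFSS values lay above P3, and the rise passed in FFSS (0.53 ± 0.15 (SE), adjusted p = 0.0321) and not in P9 (0.31, adjusted p = 0.256). Man2b1, the lysosomal alpha-mannosidase, stood at 37.0, 35.9 and 34.0 FPKM in P9, 48.6, 43.2 and 41.3 FPKM in FFSS, and 47.5, 47.4 and 48.5 FPKM in P3. P9 was lower than P3 (-0.42 ± 0.10 (SE), adjusted p = 0.0293) and lower than FFSS (-0.31 ± 0.10 (SE), adjusted p = 0.0416). Gaa, the acid glucosidase that degrades glycogen, stood at 109, 111 and 113 FPKM in P9, 148, 132 and 135 FPKM in FFSS, and 128, 125 and 118 FPKM in P3. Its groups did not overlap, and it was called lower only in P9 against FFSS (-0.32 ± 0.09 (SE), adjusted p = 0.0304). Gusb lost its call without P9 replicate 2, FFSS replicate 3 or P3 replicate 1, 2 or 3 (adjusted p = 0.0529 to 0.113). Man2b1 lost its call against P3 without P9 replicate 2 or 3 or P3 replicate 1, 2 or 3 (adjusted p = 0.0875 to 0.119) and with library totals (adjusted p = 0.0595). Between the models, the call of Man2b1 was lost without P9 replicate 2 or 3, FFSS replicate 1, 2 or 3 or P3 replicate 1, 2 or 3 (adjusted p = 0.0537 to 0.11). That of Gaa was lost without P9 replicate 1, 2 or 3, FFSS replicate 3 or P3 replicate 1, 2 or 3 (adjusted p = 0.0525 to 0.0796).

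Glb1, the beta-galactosidase gene, stood at 67.1, 67.3 and 58.3 FPKM in P9, 63.5, 116 and 97.4 FPKM in FFSS, and 78.0, 79.0 and 73.8 FPKM in P3. P9 lay below P3 by a small margin, and the FFSS libraries lay on both sides of P3. No comparison was called: -0.26 (95% interval -0.70 to 0.18, adjusted p = 0.485) for P9 against P3 and 0.22 (95% interval -0.23 to 0.66, adjusted p = 0.454) for FFSS against P3. FFSS against P3 passed without FFSS replicate 1 (adjusted p = 0.0142), and P9 against FFSS without FFSS replicate 1 (adjusted p = 0.0014). With library weights P9 against P3, FFSS against P3 and P9 against FFSS all passed (adjusted p = 0.0355, 0.00328 and 0.000651). Neu1, the lysosomal sialidase, stood at 18.6, 24.1 and 23.0 FPKM in P9, 18.7, 30.5 and 24.5 FPKM in FFSS, and 17.6, 17.4 and 15.9 FPKM in P3. Every P9 and FFSS library lay above every P3 library, yet neither difference passed (0.34 and 0.48, adjusted p = 0.293 and 0.0804); FFSS against P3 passed without FFSS replicate 1 (adjusted p = 0.00802).

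Of 6 genes for lipid handling and cofactors, Psap fell at passage 9 and Npc2 rose under shear stress. Psap, the precursor of the saposins that present lipids to hydrolases, stood at 439, 438 and 408 FPKM in P9, 533, 673 and 605 FPKM in FFSS, and 587, 571 and 588 FPKM in P3. P9 lay below the other groups, and FFSS and P3 overlapped. Psap fell in P9 against P3 (-0.44 ± 0.12 (SE), adjusted p = 0.0446) and was lower than in FFSS (-0.49 ± 0.12 (SE), adjusted p = 0.013). Npc2, the soluble protein that takes cholesterol out of the lysosome together with Npc1 (Rnor_6.0 chromosome 6, 108467410 to 108488330, minus strand), had 223, 385 and 384 FPKM in P9, 653, 767 and 635 FPKM in FFSS, and 418, 406 and 463 FPKM in P3. FFSS lay above P3 and P9 below it, with P9 replicate 1 well below the other P9 libraries. Npc2 rose in FFSS (0.67 ± 0.21 (SE), adjusted p = 0.0494) and was lower in P9 than in FFSS (-1.09 ± 0.21 (SE), adjusted p = 0.00506), while P9 against P3 had -0.42 (95% interval -0.89 to 0.06, adjusted p = 0.278). The membrane partner Npc1 stood at 14.6, 11.4 and 12.8 FPKM in P9, 21.7, 16.3 and 20.05 FPKM in FFSS, and 18.4, 16.7 and 19.2 FPKM in P3. Its P9 values were the lowest, and were called lower than FFSS (-0.55 ± 0.14 (SE), adjusted p = 0.0168) and not than P3 (-0.46, adjusted p = 0.0725). Psap lost its call against P3 without P9 replicate 1, 2 or 3, FFSS replicate 3 or P3 replicate 1, 2 or 3 (adjusted p = 0.0716 to 0.169). Npc2 lost its FFSS call without P9 replicate 2 or 3, FFSS replicate 2 or 3 or P3 replicate 1, 2 or 3 (adjusted p = 0.055 to 0.141), with a pseudocount of 0.1 (adjusted p = 0.0515) and with library totals (adjusted p = 0.0508). Npc1 lost its call against FFSS without P9 replicate 2 or FFSS replicate 3 (adjusted p = 0.0607 to 0.0649), and passed in P9 against P3 without FFSS replicate 1 or 2 (adjusted p = 0.0347 to 0.0372). It also passed in P9 against P3 in a fit of only those 2 groups (adjusted p = 0.0288) and with library weights (adjusted p = 0.000774).

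Grn, progranulin, stood at 277, 275 and 225 FPKM in P9, 302, 305 and 272 FPKM in FFSS, and 314, 281 and 332 FPKM in P3, with P9 below P3 and no call. Asah1, acid ceramidase, was below P3 in every P9 and FFSS library, at 82.5, 70.2 and 74.5 FPKM in P9, 60.1, 89.7 and 73.6 FPKM in FFSS, and 92.7, 97.7 and 103 FPKM in P3. Its log2 fold changes of -0.37 in P9 and -0.41 in FFSS did not pass (adjusted p = 0.174 and 0.0803), and that in FFSS passed without FFSS replicate 2 (adjusted p = 0.0256). That in P9 passed in a fit of only P9 and P3 (adjusted p = 0.0347). With library weights both passed (adjusted p = 0.00544 in P9 and 0.00108 in FFSS). Lipa, the lysosomal acid lipase, stood at 27.8 to 35.5 FPKM in P9, 25.4 to 30.3 FPKM in FFSS and 24.4 to 28.1 FPKM in P3, and was called in no comparison.

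None of the 5 ion channel and proton pump genes was called in any comparison. Of all genes, 9.83% were called in P9 against P3, 21.8% in FFSS against P3 and 31.4% in P9 against FFSS. With 5 genes, the absence of calls does not set this role apart from all genes. Atp6ap1, an accessory subunit of the pump, stood at 159.6, 126 and 131 FPKM in P9, 141, 176 and 164 FPKM in FFSS, and 123, 119 and 131 FPKM in P3. Atp6v0d1, of the membrane sector, stood at 77.7, 63.8 and 64.8 FPKM in P9, 77.3, 63.8 and 67.7 FPKM in FFSS, and 80.4, 81.6 and 77.7 FPKM in P3. FFSS lay above P3 for Atp6ap1 and below it for Atp6v0d1, and neither difference passed (0.36 and -0.20, adjusted p = 0.0776 and 0.238). Atp6v1a, the catalytic subunit, had -0.17 (95% interval -0.46 to 0.13, adjusted p = 0.509) for P9 against P3. Atp6v1h, a regulatory subunit, stood at 41.4, 38.7 and 37.8 FPKM in P9, 40.1, 80.6 and 59.6 FPKM in FFSS, and 39.6, 42.4 and 42.2 FPKM in P3, with FFSS replicate 1 in the range of the other groups. Mcoln1, the calcium channel of the lysosome, stood at 26.3 to 29.8 FPKM in P9, 25.7 to 35.9 FPKM in FFSS and 28.0 to 33.1 FPKM in P3. In FFSS against P3, Atp6ap1 passed without P9 replicate 1 or FFSS replicate 1 (adjusted p = 0.021 to 0.0447) and Atp6v1h without FFSS replicate 1 (adjusted p = 0.00368); in P9 against FFSS, Atp6v1h passed without FFSS replicate 1 (adjusted p = 0.00166).

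Among the cargo receptor and ATG8 genes, Sqstm1 and Gabarapl1 rose under shear stress and none of the 4 was called at passage 9. Sqstm1, or p62, the receptor that ties ubiquitin-marked cargo to the forming autophagosome, stood at 204, 205 and 204 FPKM in P9, 236, 255 and 248 FPKM in FFSS, and 169, 181 and 160.4 FPKM in P3. The 3 groups did not overlap, with FFSS highest and P3 lowest. Sqstm1 rose in FFSS (0.53 ± 0.09 (SE), adjusted p = 0.00675), under each of the 17 alternative settings too, and was not called in P9 (0.26 (95% interval 0.05 to 0.47, adjusted p = 0.131)). The ATG8 proteins are ubiquitin-like tags that are joined to a lipid of the autophagosome membrane. Gabarapl1 stood at 32.7, 48.4 and 51.7 FPKM in P9, 74.6, 64.6 and 57.4 FPKM in FFSS, and 42.8, 46.1 and 37.4 FPKM in P3. FFSS lay above both other groups, with calls against P3 (0.62 ± 0.18 (SE), adjusted p = 0.0402) and for P9 against FFSS (-0.57 ± 0.18 (SE), adjusted p = 0.0414). Map1lc3b stood at 68.7, 74.5 and 71.8 FPKM in P9, 96.6, 106 and 95.3 FPKM in FFSS, and 80.4, 81.4 and 84.6 FPKM in P3. Its groups did not overlap, and the difference of P9 from FFSS was called (-0.46 ± 0.09 (SE), adjusted p = 0.00597), but not P9 or FFSS against P3 (-0.19 and 0.27, adjusted p = 0.251 and 0.0663). Map1lc3a, among the shortest genes of the list at 969 bases, stood at 29.4, 92.9 and 88.9 FPKM in P9, 135, 113 and 102 FPKM in FFSS, and 102, 102 and 102 FPKM in P3. P9 replicate 1 lay far below the other P9 libraries, and nothing was called. Its log2 difference from the P3 mean was -1.76, against -0.14 and -0.20 in P9 replicates 2 and 3. Among all tested genes under 1 kb, the median difference of that library from the other P9 libraries was -0.18. The part of length in the value of Map1lc3a was not tested. Gabarapl1 lost its FFSS call without P9 replicate 2, FFSS replicate 1, 2 or 3 or P3 replicate 1, 2 or 3 (adjusted p = 0.0569 to 0.132). Its difference between the models was lost without P9 replicate 1 or 2, FFSS replicate 1, 2 or 3 or P3 replicate 1, 2 or 3 (adjusted p = 0.0564 to 0.0901). Map1lc3b passed in FFSS against P3 without FFSS replicate 1 (adjusted p = 0.0406), and Sqstm1 in P9 against FFSS without FFSS replicate 1 (adjusted p = 0.0305).

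Of 5 genes for the start of autophagy and its conjugation step, Ulk1 rose under shear stress, and Atg7 was higher in P9 than in FFSS. Ulk1, the kinase that starts autophagosome formation, stood at 7.29, 6.75 and 6.43 FPKM in P9, 9.97, 8.80 and 9.06 FPKM in FFSS, and 6.06, 6.23 and 4.59 FPKM in P3. FFSS was highest and P3 lowest, without overlap. Ulk1 rose in FFSS (0.64 ± 0.13 (SE), adjusted p = 0.0118), under each of the 17 alternative settings too, and was not called in P9 (0.25, adjusted p = 0.316) or between the models (-0.39, adjusted p = 0.0511). Atg7, which activates the ATG8 proteins for conjugation, stood at 6.61, 6.63 and 6.87 FPKM in P9, 5.30, 4.42 and 4.73 FPKM in FFSS, and 5.48, 5.68 and 5.93 FPKM in P3. Its groups did not overlap, with P9 highest and FFSS lowest, and it passed between the models alone (0.41 ± 0.11 (SE), adjusted p = 0.0233). That call was lost without P9 replicate 2 or 3 or FFSS replicate 2 or 3 (adjusted p = 0.0533 to 0.0688). Becn1, a subunit of the lipid kinase complex of autophagy, stood at 32.0, 33.8 and 33.4 FPKM in P9, 32.6, 30.6 and 31.9 FPKM in FFSS, and 33.2, 36.4 and 32.4 FPKM in P3. The groups overlapped, and the 95% intervals of its log2 fold changes ran from -0.25 to 0.17 in P9 and from -0.31 to 0.11 in FFSS. Wipi1, which binds the lipid made by that complex, stood at 39.9, 34.2 and 30.9 FPKM in P9, 35.7, 43.0 and 41.9 FPKM in FFSS, and 30.8, 33.1 and 30.3 FPKM in P3. FFSS lay above P3, with no call (0.34, adjusted p = 0.0792), and passed without P9 replicate 1 or FFSS replicate 1 (adjusted p = 0.024 to 0.0494). Atg5, part of the conjugation machinery, stood at 10.1 to 13.5 FPKM in P9, 11.7 to 14.5 FPKM in FFSS and 11.8 to 14.2 FPKM in P3. Ulk1 passed for P9 against FFSS without P3 replicate 3 (adjusted p = 0.0438).

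A wider list of 140 further lysosome and autophagy genes had 133 in the table, of which 127 were tested. In P9 against P3, 7 of these were lower (5.51%, background 4.44%) and 6 higher (4.72%, background 5.39%), shares near those of all genes. In FFSS against P3, 28 were higher (22.0%, background 11.4%) and 5 lower (3.94%, background 10.4%). P9 was lower than FFSS for 38 (29.9%, background 15.3%) and higher for 6 (4.72%, background 16.1%). The hydrolases and their cofactors carried most of it: of 31 tested, 15 (48.4%) rose in FFSS and none fell, and 20 (64.5%) were lower in P9 than in FFSS and none was higher. Of 27 other autophagy genes, 3 rose (11.1%) and 1 fell (3.7%) in FFSS. Of 13 other pump subunits, 2 rose (15.4%) and 1 fell (7.69%), where 11.4% of all genes rose and 10.4% fell. Of 11 genes of the TFE and mTORC1 group none was called against P3 in FFSS, with 3 at an unadjusted p under 0.05 (27.3%, against 37.3% of all genes). Without FFSS replicate 1 the 28 numbered 46, and without FFSS replicate 2 or 3, P9 replicate 2, or P3 replicate 1, 2 or 3 they numbered 16, 11, 18, 7, 10 and 11. The 7 lower in P9 numbered 11 and 4 when FFSS replicate 1 or 3 was left out, 4, 2 and 2 when P9 replicate 1, 2 or 3 was, and 1, 2 and 1 when P3 replicate 1, 2 or 3 was. The 6 higher in P9 than in P3 numbered 12 without FFSS replicate 1, 2 without P9 replicate 1, 1 without P3 replicate 2, and none without P9 replicate 2, P3 replicate 1 or P3 replicate 3. The 5 lower in FFSS numbered 13, 3 and 2 when FFSS replicate 1, 2 or 3 was left out, and 1 when any P3 library was. The 6 higher in P9 than in FFSS numbered 13 without FFSS replicate 1, 3 without FFSS replicate 3 and 2 without P9 replicate 1.

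Ctsh, cathepsin H, an aminopeptidase of the lysosome, was called in all 3 comparisons, with the smallest adjusted p of the wider list among falls in P9 and rises in FFSS (Rnor_6.0 chromosome 8, 97439161 to 97458287, plus strand). It stood at 49.8, 55.2 and 58.3 FPKM in P9, 552, 779.9 and 597 FPKM in FFSS, and 133, 141 and 146 FPKM in P3. Each FFSS library lay above every P3 library, and each P9 library below. Ctsh fell in P9 (-1.35 ± 0.14 (SE), adjusted p = 0.000679), rose in FFSS (2.17 ± 0.14 (SE), adjusted p = 6.97e-05) and differed by -3.52 ± 0.14 (SE), adjusted p = 2.04e-06 between P9 and FFSS, under each of the 17 alternative settings too. The next smallest adjusted p among rises in FFSS were those of the hyaluronidase Hyal2 (1.01, adjusted p = 0.00194), the nuclease Dnase2 (0.87, 0.00433), the alpha-galactosidase Gla (0.61, 0.0064) and the membrane protein Cd68 (0.97, 0.0078), and each of these held under every alternative setting run for it; Cd68 was not tested with the filter of 5 FPKM. The falls in FFSS were those of Rubcn, a negative regulator of autophagy (-0.79, adjusted p = 0.0117), the pump subunit Atp6v1b2 (-0.44, 0.0161), the retromer subunit Vps35 (-0.63, 0.0187), the fusion protein Stx17 (-0.91, 0.0243) and the amino acid transporter Slc36a1 (-0.48, 0.0336). Of these falls, Rubcn held with each library left out. Atp6v1b2 was lost without FFSS replicate 3 or P3 replicate 1, 2 or 3 (adjusted p = 0.0516 to 0.0675) and Vps35 without FFSS replicate 2 or 3 or P3 replicate 1, 2 or 3 (adjusted p = 0.0513 to 0.0679). Stx17 was lost without FFSS replicate 2 or 3 or P3 replicate 1, 2 or 3 (adjusted p = 0.0545 to 0.0883) and Slc36a1 without P9 replicate 2 or 3, FFSS replicate 2 or P3 replicate 1, 2 or 3 (adjusted p = 0.0503 to 0.126).

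In P9 against P3, the falls besides Ctsh included those of the mannosidase Manba (-0.95, adjusted p = 0.0143), Slc36a1 (-0.59, 0.025) and Optn, an autophagy receptor (-0.48, 0.0319). The rises included those of the ganglioside activator Gm2a (0.56, adjusted p = 0.0122), the lysosomal channel Tpcn1 (0.55, 0.0215), Fnip2, a partner of folliculin (0.91, 0.0237), the protease legumain, Lgmn (0.49, 0.0282), and the membrane protein Laptm4b (0.67, 0.0323). Every one of these calls was lost when some library was left out. Manba was lost without P9 replicate 3 or P3 replicate 1 or 3 (adjusted p = 0.0543 to 0.0665). Slc36a1 was lost without P9 replicate 2 or 3 or P3 replicate 1, 2 or 3 (adjusted p = 0.0566 to 0.105) and Optn without P9 replicate 1, 2 or 3, FFSS replicate 3 or P3 replicate 1, 2 or 3 (adjusted p = 0.0517 to 0.126). Among the rises, Gm2a was lost without P9 replicate 2 or P3 replicate 1 or 3 (adjusted p = 0.0568 to 0.0672) and Tpcn1 without P9 replicate 1 or 2 or P3 replicate 1, 2 or 3 (adjusted p = 0.0644 to 0.0989). Fnip2 was lost without P9 replicate 1 or 2 or P3 replicate 1, 2 or 3 (adjusted p = 0.0737 to 0.0945). Lgmn was lost without P9 replicate 1 or 2 or P3 replicate 1, 2 or 3 (adjusted p = 0.0607 to 0.119). Laptm4b was lost without P9 replicate 1 or 2, FFSS replicate 3 or P3 replicate 1, 2 or 3 (adjusted p = 0.0524 to 0.116). Slc36a1 fell and Laptm4b and Gm2a rose in both models, which share their P3 libraries. In FFSS, Laptm4b and Gm2a had 0.57 and 0.57 (adjusted p = 0.0349 and 0.00862), and Laptm4b lost that call without P9 replicate 2, FFSS replicate 2 or 3 or P3 replicate 1, 2 or 3 (adjusted p = 0.0558 to 0.117). Genes of the wider list lower in P9 than in FFSS included, besides Ctsh, the sialic acid transporter Slc17a5 (-0.74, adjusted p = 0.00101), Manba (-1.35, 0.00116) and the fucosidase Fuca1 (-1.04, 0.00157). P9 was higher than FFSS for, among others, Atp6v1b2 (0.44, 0.011), Tpcn1 (0.53, 0.0112), Fnip2 (0.83, 0.0148), the kinase Mtor (0.76, 0.0259) and Vps35 (0.52, 0.0286). Of these, Fnip2 was lost without P9 replicate 1 or FFSS replicate 3 (adjusted p = 0.0516 to 0.0557). Mtor was lost without P9 replicate 1, 2 or 3 or FFSS replicate 3 (adjusted p = 0.0549 to 0.081) and Vps35 without P9 replicate 1, FFSS replicate 2 or 3 or P3 replicate 1 (adjusted p = 0.0506 to 0.0924).

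**Figure D4:**
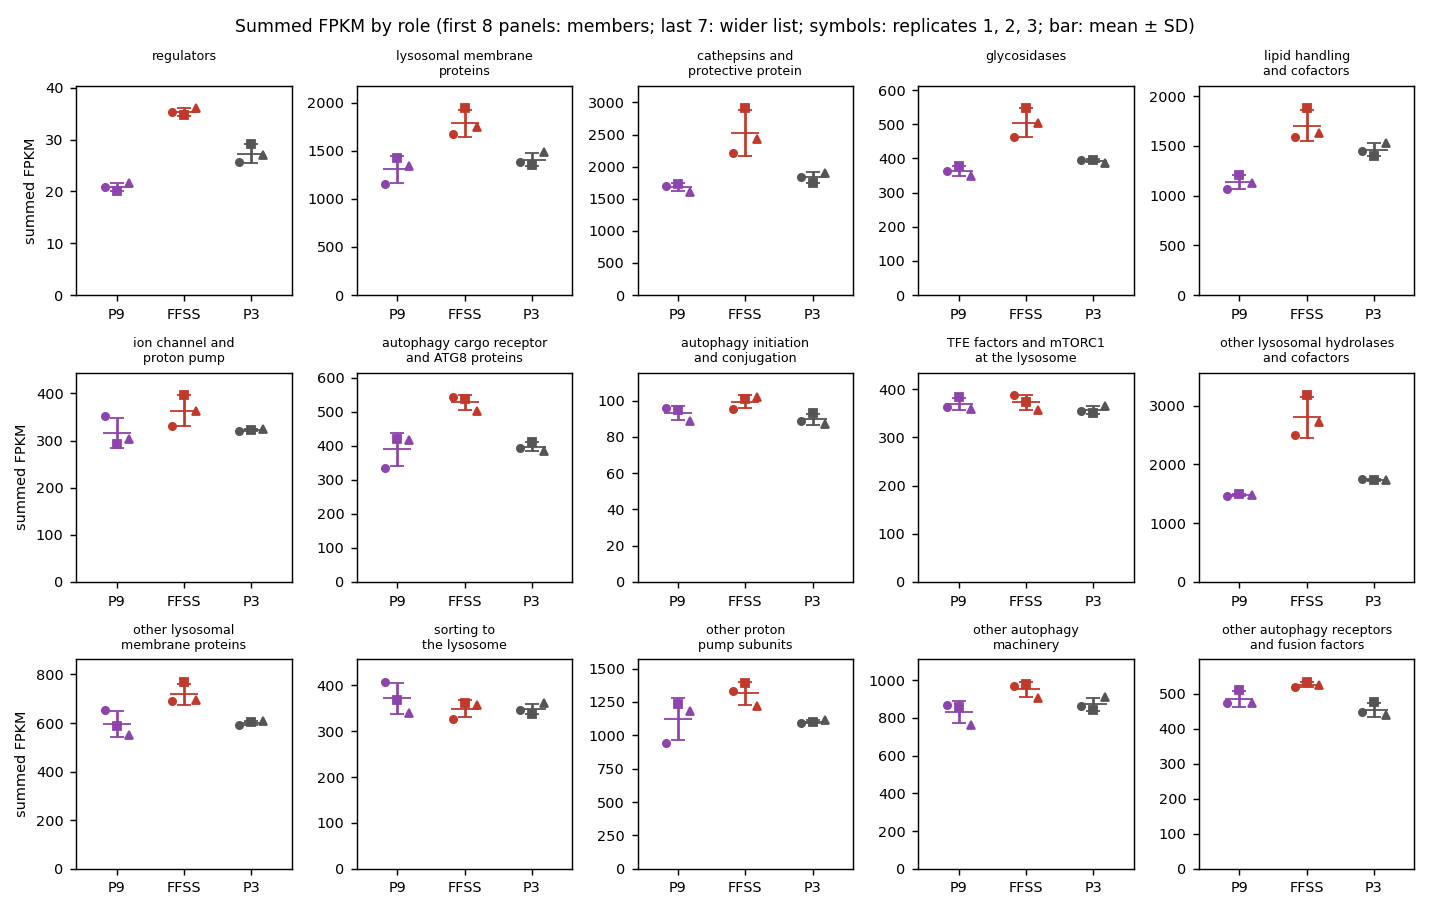
Summed FPKM per library over the genes of each role, with groups along each axis, symbols for replicates 1 to 3 and bars for the mean ± SD (n = 3 each); 8 panels hold the members and 7 the wider list. The sums of the cathepsins, of the glycosidases and of the other hydrolases lie higher in all FFSS libraries than in any P9 or P3 library, while the panel of sorting genes overlaps between groups.

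In FPKM summed over roles, the cathepsins and the protective protein stood at 1699, 1726 and 1607 FPKM in P9, 2213, 2911 and 2428 FPKM in FFSS, and 1836, 1749.6 and 1908 FPKM in P3. The other hydrolases of the wider list stood at 1457, 1496 and 1484 FPKM in P9, 2502, 3180.2 and 2714 FPKM in FFSS, and 1752, 1735 and 1727 FPKM in P3. For both, all FFSS sums lay above all P3 sums and all P9 sums below them. The autophagy initiation and conjugation genes summed to 96.0, 94.8 and 88.6 FPKM in P9, 95.3, 101 and 102 FPKM in FFSS, and 88.5, 93.1 and 87.3 FPKM in P3, with FFSS above P3 and overlapping P9. Sums over chosen genes were not tested.

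Macrophages are rich in lysosomes, so their markers are given beside these values. Of 12 macrophage and leukocyte markers, 11 were in the table, and they summed to 5.34 to 6.65 FPKM in P9, 40.1 to 105 FPKM in FFSS and 9.25 to 10.6 FPKM in P3. Most of the sum was Cd14, a receptor for bacterial lipid that many mesenchymal cells also make, at 4.62, 4.87 and 4.59 FPKM in P9, 39.9, 94.3 and 67.5 FPKM in FFSS, and 8.76, 8.80 and 9.86 FPKM in P3. Csf1r, the receptor that defines the macrophage lineage, stood at 0.0921, 0.0329 and 0.218 FPKM in P9, 0.0840, 3.17 and 2.08 FPKM in FFSS, and 0.0830, 0.0182 and 0.187 FPKM in P3. Lyz2, lysozyme, stood at 0, 0 and 0 FPKM in P9, 0.0562, 5.36 and 2.94 FPKM in FFSS, and 0.222, 0.305 and 0.171 FPKM in P3. FFSS replicate 1 held no more of either than the highest P3 library, and FFSS replicates 2 and 3 held more. Of the 37 tested members, 8 lay above every P3 library in FFSS replicates 2 and 3 and not in replicate 1, namely Atp6v1h, Ctsa, Ctsk, Ctsl, Glb1, Lipa, Psap and Tfeb. A further 17 (45.9%, against 20.1% of all genes) lay above every P3 library in all 3 FFSS libraries. In replicate 1 alone 3 did, Ctsz, Man2b1 and Mcoln1. For the counts of 8 and of 3, the share over all genes was not worked out, and FFSS replicate 1 stood apart across all tested genes. Ptprc, the pan-leukocyte marker, was at 0 to 0.0145 FPKM in P9, 0 to 0.0400 FPKM in FFSS and 0 to 0.0268 FPKM in P3, and Adgre1 was at 0 in all P9 and FFSS libraries. Endothelial markers (5 of 6 in the table) summed to 0.142 to 0.273 FPKM in P9, 0.448 to 0.692 FPKM in FFSS and 0.817 to 0.956 FPKM in P3, with Cdh5 and Emcn at 0. Epithelial markers (5 of 5) summed to 1.32 to 2.13 FPKM in P9, 0.207 to 1.14 FPKM in FFSS and 0.243 to 0.558 FPKM in P3. The part of other cell types in the FFSS values was not tested.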

How the data were processed

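RNA was sequenced from 9 libraries in 3 groups of 3 (P9, FFSS and P3), and the authors deposited 1 table of FPKM per gene. Per the submitters' processing notes, the tools included featureCounts 1.5.0-p3 and HISAT2 2.0.5, with Rnor_6.0 as build; whether strand was used in counting is not given in the sources used here. In every library 100% of the FPKM came out as whole multiples of 1 fragment (tolerance 0.01), which gave the fragment totals; intervals and floors cover counting error only. Genes at 1 FPKM or more in at least 3 libraries were kept, log2(FPKM + 1) was taken, and limma 3.58.1 with a mean-variance trend (R 4.3.3) was fitted to all 9 libraries, with Benjamini-Hochberg adjustment over all genes tested. The fit was also run on simulated data with the same spread in every group, which cannot speak for groups of unequal spread. A fold change on this scale understates that of low genes. The same libraries were refitted with a pseudocount of 0.1, no filter, a filter of 5 FPKM, library totals, voom on the recovered fragments, a replicate block, library weights, only the 2 groups compared, and each library left out. Named with every library's values were all members called in any comparison, Tfeb, Tfe3, and up to 2 more per role by mean FPKM; of the wider list, the 5 smallest adjusted p per direction. The values of 1 gene that this rule names are not reported here. Members and lists were chosen with earlier results of these data known. Motifs were counted in RefSeq promoters of GRCr8, for names and letters only.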

Additional observations from a re-analysis of the deposited data

Results flagged for a closer look

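The effects of the 2 models, each taken against the same P3 libraries, differed for 16 of the 37 tested members by limma's test of P9 minus FFSS with Benjamini-Hochberg adjustment, on the log2(FPKM + 1) scale and with n = 3 libraries a group. Of all genes, 4100 of 13059 (31.4%) were called in that comparison. By direction, 40.5% of members were lower in P9 and 2.7% higher, against 15.3% and 16.1% of all genes. Among the proteases the difference was -1.88 for Ctsk (adjusted p = 0.00275), -1.77 for Ctsz (0.00719), -1.19 for Ctsd (0.000392) and -0.48 for Ctsa (0.0223). The regulators Tfeb and Tfe3 differed by -1.03 (0.00631) and -0.60 (0.00372), and the membrane protein Lamp1 by -0.79 (0.00231). Of the genes for lipid handling, Npc2 differed by -1.09 (0.00506), Npc1 by -0.55 (0.0168) and Psap by -0.49 (0.013). The glycosidases Hexa, Gaa and Man2b1 differed by -0.71 (0.00238), -0.32 (0.0304) and -0.31 (0.0416). Among the autophagy genes, Gabarapl1 differed by -0.57 (0.0414) and Map1lc3b by -0.46 (0.00597), while Atg7 alone was higher in P9, by 0.41 (0.0233). Ctsd, Psap, Npc2, Lamp1, Ctsk, Hexa, Map1lc3b, Tfe3, Ctsz and Tfeb kept the call with each of the 9 libraries left out in turn.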

How the results depend on the processing

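No call of a named gene turned to the other direction under any setting run: of 888 member values under the other settings 34 lost and 52 gained a call, and with a library left out 83 of 999 lost and 26 gained one. Library weights (0.149 for FFSS replicate 1 to 8.13 for P3 replicate 1) raised most counts. In FFSS against P3 the weights gave 22 members higher and 5 lower, and 67 genes of the wider list higher and 25 lower. In P9 against P3 they gave 5 members higher and 16 lower, and 18 and 27 of the wider list; in P9 against FFSS they gave 23 members lower, and 19 higher and 58 lower of the wider list. Fitting only the 2 groups compared gave 3 lower genes of the wider list in FFSS against P3, 10 lower members in P9 against P3, and in P9 against FFSS no higher and 9 lower members, with 1 higher and 25 lower of the wider list. Over all genes that fit called 1375 higher and 1113 lower in P9 against P3, against 704 and 580, and 1233 and 1258 in P9 against FFSS, against 2103 and 1997; weights called 3851 and 3699 there, 2222 and 2071 in P9 against P3, and 4175 and 4451 in FFSS against P3, against 1483 and 1362. Without a filter, 5 members were higher in FFSS and 3 lower in P9 against P3; with library totals, 3 members and 4 wider genes were lower in P9 against P3. On the log2(FPKM + 1) scale, the median SD over tested genes was 0.268 in FFSS, 0.175 in P9 and 0.11 in P3. The main fit pooled the spread of each gene over all groups, so its P9 against P3 tests drew on the FFSS libraries too. The cause of these shifts was not tested.

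With a replicate block, FFSS against P3 had 3 members and 18 wider genes higher, P9 against P3 had 2 members and 2 wider genes lower and 3 wider genes higher, and P9 against FFSS had no member higher. The numbers are not shown to pair libraries: same-numbered libraries of different groups deviated from their group means with correlations of -0.041 to 0.033.

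With each library left out in turn, members ranged from 3 to 17 higher and 0 to 1 lower in FFSS against P3, 0 to 0 higher and 1 to 8 lower in P9 against P3, and 0 to 1 higher and 10 to 16 lower in P9 against FFSS. The wider list ranged from 7 to 46 and 1 to 13, 0 to 12 and 1 to 11, and 2 to 13 and 28 to 44 in the same order. A group left with 2 libraries was tested with the spread pooled over all groups. Ctss was below the filter on low values and was not tested.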

Other observations

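In the wider list, 118 genes matched a RefSeq promoter window on GRCr8. The E-box core stood in 22 of them (18.6%, against 6.42% of all windows) and the full CLEAR element in 6 (5.08%, against 0.233%), namely Epg5, Galc, Igf2r, Slc36a1, Snap29 and Vps26a. Of these 6, only Slc36a1 was called in any comparison, lower in both P9 and FFSS than in P3. Epg5, Galc, Igf2r, Snap29 and Vps26a were called in none. In either direction, 9.83% of all genes were called in P9 against P3 and 21.8% in FFSS against P3. A match describes letters and was not set against binding.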
